A study of Homo sapiens with 4 samples.

Results

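Genes of 7 solute carrier (SLC) families that carry amino acids and related small molecules across membranes were followed in the RNAseq data of T24, a human bladder carcinoma cell line. Members were all genes whose symbol places them in SLC1, SLC3, SLC6, SLC7, SLC36, SLC38 or SLC43, except SLC7A5, SLC7A11 and SLC3A2, which gave 56 of the 57879 genes in the deposited files. They comprised 7 SLC1, 1 SLC3, 19 SLC6, 11 SLC7, 4 SLC36, 11 SLC38 and 3 SLC43 genes. The cells were transduced with lentivirus carrying an empty vector (EV, the control genotype, 2 libraries) or the FLAG-tagged catalytic domain of TET1 (TET1-CD, 2 libraries), were selected with puromycin and were grown in RPMI with fetal calf serum. The source of all 4 libraries is also labelled as induced, without saying by what. The construct holds only the catalytic part of TET1, each group is a selected population of 1 cell line, and no library of the catalytically inactive mutant was analysed here. Whether libraries of a group come from separate cultures is not stated, so the spread between them may be technical.

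Amino acid transporters set which amino acids a cell takes up, exchanges or releases. SLC1 and SLC38 members couple neutral amino acids or glutamate to sodium, and SLC7 members carry cationic amino acids or pair with an SLC3 heavy chain as exchangers. SLC36A1 uses protons, and SLC43A1 and SLC43A2 let large neutral amino acids follow their gradient. The SLC6 family also holds transporters of monoamines, GABA, taurine, creatine and betaine, so not every member carries an amino acid. Proliferating carcinoma cells draw on such carriers for glutamine, leucine, arginine and serine.

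The authors deposited estimated fragment counts per transcript, which were summed per gene, and the totals were 17442143 to 20295266 per library. Members together took 0.14% to 0.149% of these counts, with both groups inside that range. TET1 had 111 and 83 counts in EV against 2939 and 3310 in TET1-CD cells. The keratin genes KRT7, KRT8 and KRT18 were abundant (10759 counts or more in each library). Of 5 tested epithelial markers 3 were called higher with TET1-CD, namely KRT7 (log2 fold change 0.34), KRT19 (1.0) and KRT18 (0.18). EPCAM (0.54) and KRT8 (-0.08) were not called, and KRT8 was lower in both TET1-CD libraries after normalization. Of 4 mesenchymal markers, VIM (-0.39) and FN1 (-0.26) were called lower, and ZEB1 (0.09) and CDH2 (-0.04) were not called and overlapped between groups. The summed FPKM of that list, most of it from VIM, was 2347 and 2496 in EV against 1876 and 1946. Of 12 urothelial lineage markers, 6 (KRT20, UPK1A, UPK1B, UPK3A, GRHL3 and TP63) were at or under 3 counts in all libraries, and of the 5 that were tested GATA3 (1.25) and FOXA1 (0.37) were called higher and ELF3 (-0.54) lower. Of 5 leukocyte markers, 4 were at or under 3 counts, and CD14 had 13 and 15 counts in EV against 8 and 12 and was not called. Of 5 fibroblast markers, DCN and COL1A2 were at or under 3 counts and COL1A1 rose from 88 and 70 counts to 266 and 314, and the summed FPKM of that list was 1.68 and 1.55 in EV against 4.9 and 4.01. The part of these markers in the transporter results was not tested.

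Of the 56 transporter genes, 23 had enough counts for a test. Levels between genes were compared as FPKM, which is scaled to transcript length and library size and was summed over the transcripts of a gene. SLC38A2 (SNAT2), a sodium-coupled carrier of small neutral amino acids that responds to amino acid supply, was at the top with 116.3 and 111.9 FPKM in EV against 90.84 and 98.42 in TET1-CD cells. It alone made up 27.8% to 33.6% of the summed FPKM of the members. SLC38A1 (SNAT1, glutamine and other neutral amino acids; 32.46 to 41.17 FPKM over the 4 libraries) and SLC1A5 (ASCT2, a glutamine exchanger; 35.63 to 37.17 FPKM) followed, and their ranges overlapped. SLC6A8, the creatine transporter, came next at 22.96 to 33.05 FPKM. SLC7A1 (CAT1, arginine and lysine; 16.2 to 22.09 FPKM) and SLC38A10 (19.09 to 20.63 FPKM) could not be ordered, and likewise SLC7A6 (y+LAT2, an exchanger of cationic for neutral amino acids; 12.68 to 15.79 FPKM) and SLC38A9, the lysosomal arginine sensor (11.14 to 13.27 FPKM). SLC36A4 (PAT4, proline and tryptophan; 8.5 to 10.96 FPKM) and SLC43A3, a purine nucleobase carrier (7.83 to 8.78 FPKM), closed the top 10. Transcripts with few counts can add much to such a sum. In EV replicate 1, ENST00000534116 of SLC36A4 gave 4.75 FPKM from 85.52 estimated counts, and ENST00000326402 gave 4.33 from 527.4. The order of levels therefore holds for summed FPKM only. The other 13 tested genes were under 7 FPKM in each library, and most neighbours among them overlapped.

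**Figure D1:**
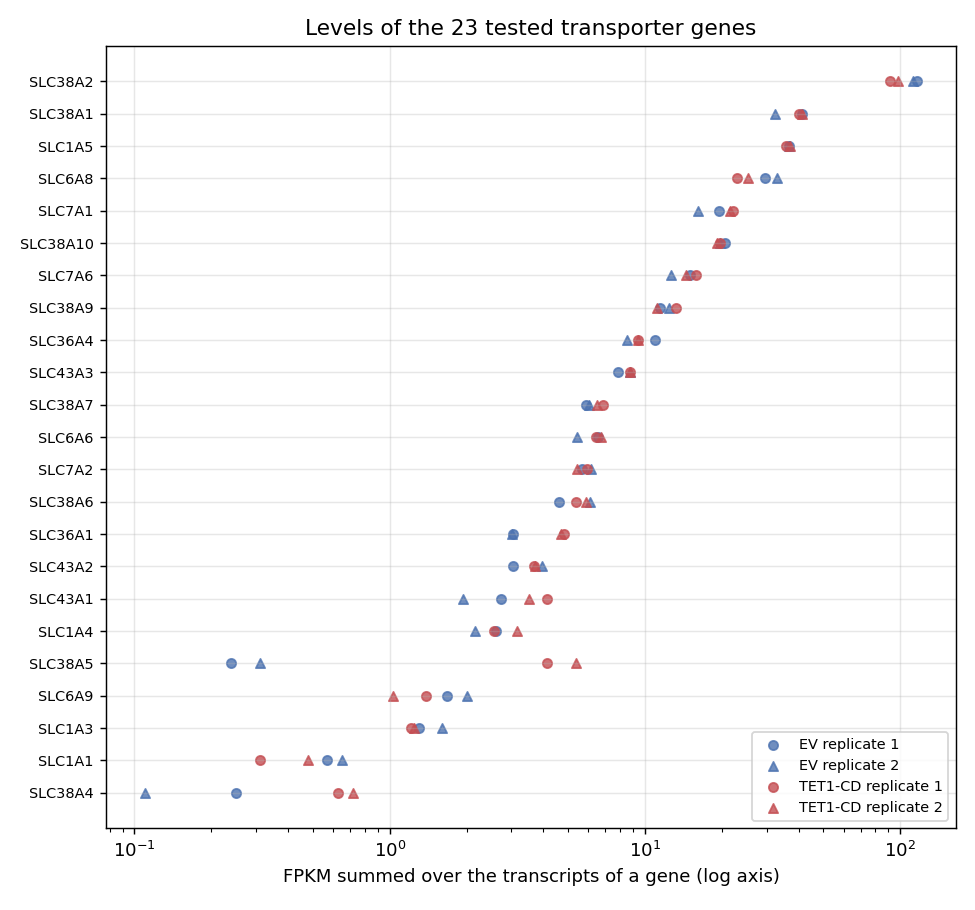
FPKM of the 23 tested transporter genes (log axis), ordered by the mean of the 4 libraries, with EV in blue and TET1-CD in red and replicate 1 as circles and replicate 2 as triangles. SLC38A2 lies above all others at 90.84 to 116.3 FPKM, and for SLC38A5 the EV points (0.24 and 0.31) lie far left of the TET1-CD points (4.14 and 5.39).

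The other 33 members did not pass the filter on low counts. No fragment was listed in any library for 11 of them, namely SLC6A2, SLC6A3, SLC6A5, SLC6A11, SLC7A4, SLC7A9, SLC7A10, SLC36A2, SLC36A3, SLC38A3 and SLC38A8. In total 28 of the 33 were at or under 3 counts in every library, a floor that covers counting error only. These included the noradrenaline, dopamine and serotonin transporters (SLC6A2, SLC6A3 and SLC6A4), the GABA transporters SLC6A11 and SLC6A13, the betaine transporter SLC6A12, the intestinal and renal carriers SLC6A18, SLC6A19 and SLC6A20, and SLC1A2, SLC1A6, SLC1A7, SLC6A14, SLC6A15, SLC6A17, SLC7A3, SLC7A8, SLC7A13 and SLC38A11. The remaining 5 reached at most 8 counts. SLC7A7 (y+LAT1) had 5 and 7 counts in EV against 8 and 8 in TET1-CD cells, SLC6A7 (proline) 0 and 2 against 6 and 4, SLC7A14 2 and 0 against 1 and 4, SLC6A16 3 and 0 against 4 and 0, and SLC3A1, the rBAT heavy chain, 0 and 6 against 0 and 1. At this depth a change in these genes could not be detected.

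TET1-CD and EV cells were then compared by edgeR's quasi-likelihood test over all 14573 genes that passed the filter. Of the 23 tested transporter genes, 7 changed at an adjusted p under 0.05 (30.4%, beside 19.7% of all genes tested). SLC38A5, SLC38A4, SLC43A1, SLC36A1 and SLC7A1 rose in TET1-CD cells (5 genes, beside a background of 10% of all genes tested called higher), and SLC6A8 and SLC38A2 fell (2 genes, beside 9.61% called lower). SLC38A5 and SLC38A4 alone were past a fold change of 2, a threshold that 3.77% of all genes tested passed in either direction and 2.72% as higher. Both genes passed the filter on low counts only through the TET1-CD libraries, where they were high, and neither remained in the test when 10 counts were asked for in every library. The median log2 fold change of the 23 genes was 0.06, against 0.00095 over all genes tested. The groups did not overlap for 13 of the 23 genes, against 61% of all genes tested. In bulk RNA, a change in every cell and a change in the share of cells that express a gene cannot be told apart, nor can fewer cells of a kind from less RNA per cell.

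**Figure D2:**
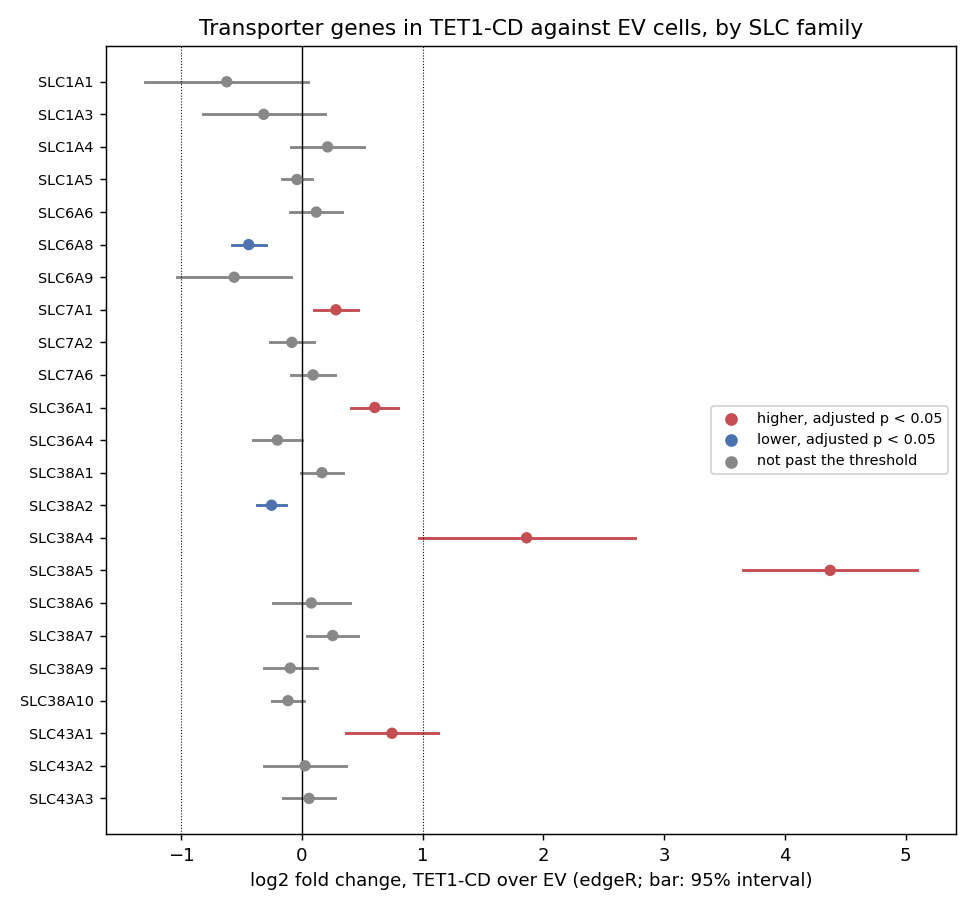
log2 fold change of each tested transporter gene in TET1-CD over EV cells from edgeR (points) with its 95% interval (bars), in the order of the SLC families, and dotted lines at a fold change of 2 in each direction. The 5 genes in red and the 2 in blue passed an adjusted p of 0.05, and SLC38A5 stands apart at 4.37.

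SLC38A5 (SNAT5) is a System N carrier, which moves glutamine, asparagine, histidine, serine and glycine with sodium in exchange for protons. It lies on chromosome X of GRCh37 from 48316920 to 48328644 on the minus strand. It had 5 and 5 counts in EV against 87 and 124 in TET1-CD cells, so both TET1-CD libraries were far above both EV libraries. After TMM normalization these were 5.01 ± 0.553 (SD, n = 2) and 105.3 ± 18 (SD, n = 2), and the log2 fold change was 4.37 (SE 0.32), with an adjusted p of 1.84e-05 by edgeR. This was 20.7-fold, with a 95% interval of 12.6 to 34.1. The SE was larger by DESeq2 (0.577) and by limma-voom (0.454), so this interval may be too narrow. The EV counts were just above the floor of 3, so the fold rests on few fragments. Among its 13 listed transcripts, ENST00000317669 rose from 1.95 and 1.92 estimated counts to 49.9 and 65.3, and ENST00000462359 from 2.46 and 1.45 to 23.4 and 24.7. The other System N gene, SLC38A3, was listed at 0 in all 4 libraries. With the rise, SLC38A5 went from 0.0689% and 0.0932% of the summed FPKM of the members to 1.27% and 1.61%, and thus remained a minor part of the expressed transporters.

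The 3 System A genes, SLC38A1, SLC38A2 and SLC38A4, lie side by side on chromosome 12, with gaps of 88172 bp and 391896 bp between them, and did not move alike. SLC38A4 (SNAT4; 47158546 to 47226191) had 19 and 6 counts in EV against 40 and 50 under TET1-CD. Its log2 fold change was 1.86 (SE 0.4), with an adjusted p of 0.0104 by edgeR, or 3.63-fold with a 95% interval of 1.96 to 6.75. The EV libraries of this low gene differed by 1.2 on the log2 scale, and the log2 fold change was 2.77 without EV replicate 1 and 1.36 without EV replicate 2. Without TET1-CD replicate 1 or 2 its adjusted p was 0.0679 or 0.094.

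SLC38A2, in the middle (46751972 to 46766650), was lower in both TET1-CD libraries, with 10636 and 8953 counts in EV against 7504 and 8819 in TET1-CD cells. In normalized counts this was 9738 ± 108.4 (SD, n = 2) against 8193 ± 292.6 (SD, n = 2), which do not overlap, and its log2 fold change was -0.25 (SE 0.05), with an adjusted p of 0.00983 by edgeR, a fall of 15.9% in the gene with the highest FPKM of all members. The adjusted p was 0.248 without TET1-CD replicate 1 and 0.0986 without TET1-CD replicate 2. SLC38A1, the left neighbour (46576846 to 46663800), had 5166 and 4307 normalized counts in EV against 5339 and 5305 in TET1-CD cells, a log2 fold change of 0.17 (SE 0.08, 95% interval -0.0047 to 0.34) that did not pass the test (adjusted p = 0.162 from edgeR). Its log2 fold change was 0.30 without EV replicate 1 and 0.041 without EV replicate 2. With all libraries and no count filter its adjusted p was 0.0369 from edgeR, so the call depends on the filter as well as on the EV libraries. In summed FPKM, the System A genes gave 157.7 and 144.5 in EV against 131.5 and 140.2 in TET1-CD cells, mostly through SLC38A2.

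SLC36A1 (PAT1), a proton-coupled carrier of glycine, alanine and proline at the plasma membrane and the lysosome, was the most even of the changed genes. It had 350 and 304 counts in EV against 466 and 519 in TET1-CD cells, or 325.5 ± 3.59 (SD, n = 2) against 495.1 ± 1.13 (SD, n = 2) after normalization. The log2 fold change was 0.61 (SE 0.09), with an adjusted p of 0.00134 by edgeR, 1.52-fold, and it was between 0.59 and 0.61 when each library was left out. The gene lies on chromosome 5 (150816607 to 150871942), 89456 bp from SLC36A2, which like SLC36A3 was listed at 0. SLC36A4 was lower in both TET1-CD libraries, with 621 and 542.8 normalized counts in EV against 513 and 501 in TET1-CD cells, but did not pass the test (log2 fold change -0.20, SE 0.09, adjusted p = 0.15 from edgeR, and 0.023 without EV replicate 2).

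SLC43A1 (LAT3), a facilitative carrier of leucine and other large neutral amino acids, had 117 and 80 counts in EV against 172 and 153 under TET1-CD. Its log2 fold change was 0.75 (SE 0.17), with an adjusted p of 0.0136 by edgeR, 1.68-fold, and both TET1-CD libraries exceeded both EV libraries. The adjusted p was 0.158 without TET1-CD replicate 1. SLC43A3, which lies 56954 bp away on chromosome 11, had 353.4 and 397.1 normalized counts in EV against 384.2 and 397.2 in TET1-CD cells, and SLC43A2 (LAT4) had 158.7 and 216.9 against 188.4 and 192.4. The groups overlapped for both, with log2 fold changes of 0.06 (SE 0.1, 95% interval -0.16 to 0.28, adjusted p = 0.711 from edgeR) and 0.03 (95% interval -0.31 to 0.37).

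SLC7A1 was the 1 SLC7 member past the threshold, with SLC7A5 and SLC7A11 left out by the rule and given below. Its counts were 2891 and 2048 in EV against 2841 and 3066 in TET1-CD cells, and after normalization both TET1-CD libraries (3023 and 2920) were above both EV libraries (2668 and 2210). The log2 fold change was 0.28 (SE 0.08), with an adjusted p of 0.0343 by edgeR, 1.22-fold, and the EV libraries differed from each other by nearly as much (0.27 on the log2 scale). Without EV replicate 1 the log2 fold change was 0.42 and without EV replicate 2 it was 0.15, and the adjusted p was 0.244 and 0.145 without TET1-CD replicate 1 and 2. SLC7A2 (CAT2), also a carrier of cationic amino acids, had 747.4 and 852.5 normalized counts in EV against 777.9 and 732.4 in TET1-CD cells, and SLC7A6 had 1130 and 957.1 against 1156 and 1077. Neither passed the test (log2 fold changes of -0.08, adjusted p = 0.539, and 0.09, SE 0.08, adjusted p = 0.474, from edgeR). SLC7A6OS lies on the other strand over 17317 bp of SLC7A6 and had 689 and 554 counts against 608 and 805. Reads from the shared span may not be told apart, and how much of it is exon was not examined.

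Of the SLC6 genes, only SLC6A6, SLC6A8 and SLC6A9 were tested. SLC6A8 is not an amino acid carrier but takes up creatine. It had 1910 and 1775 counts in EV against 1252 and 1448 in TET1-CD cells, or 1839 ± 108.1 (SD, n = 2) against 1356 ± 33.1 (SD, n = 2) after normalization, and both TET1-CD libraries were lower. The log2 fold change was -0.44 (SE 0.06), with an adjusted p of 0.00132 by edgeR, a fall of 26.2%, and it stayed past the threshold in all alternatives run (adjusted p of 4.4e-09 to 0.0368). Most of it lay in ENST00000253122, with 1611 and 1422 estimated counts in EV against 1020 and 1099 in TET1-CD cells, whereas ENST00000430077 overlapped between groups (273.1 and 308.3 against 218 and 322). The pseudogene SLC6A10P, a near copy of this gene, held at most 1 count, and how the counting divided shared fragments is not given in the sources used here. SLC6A9 (GlyT1), the glycine transporter, had 77.5 and 97.1 normalized counts in EV against 67.1 and 51.4 under TET1-CD, and a log2 fold change of -0.56 (95% interval -1.03 to -0.09) and an adjusted p of 0.0943 from edgeR. CCDC24, which overlaps SLC6A9 on the other strand over 5029 bp, went from 113 and 116 counts to 77 and 82. As use of strand in the counting is not stated, reads from the shared span of this pair may not be told apart. SLC6A6, which carries taurine, had 608.1 and 507.2 normalized counts against 618.3 and 597.2, and the groups overlapped.

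**Figure D3:**
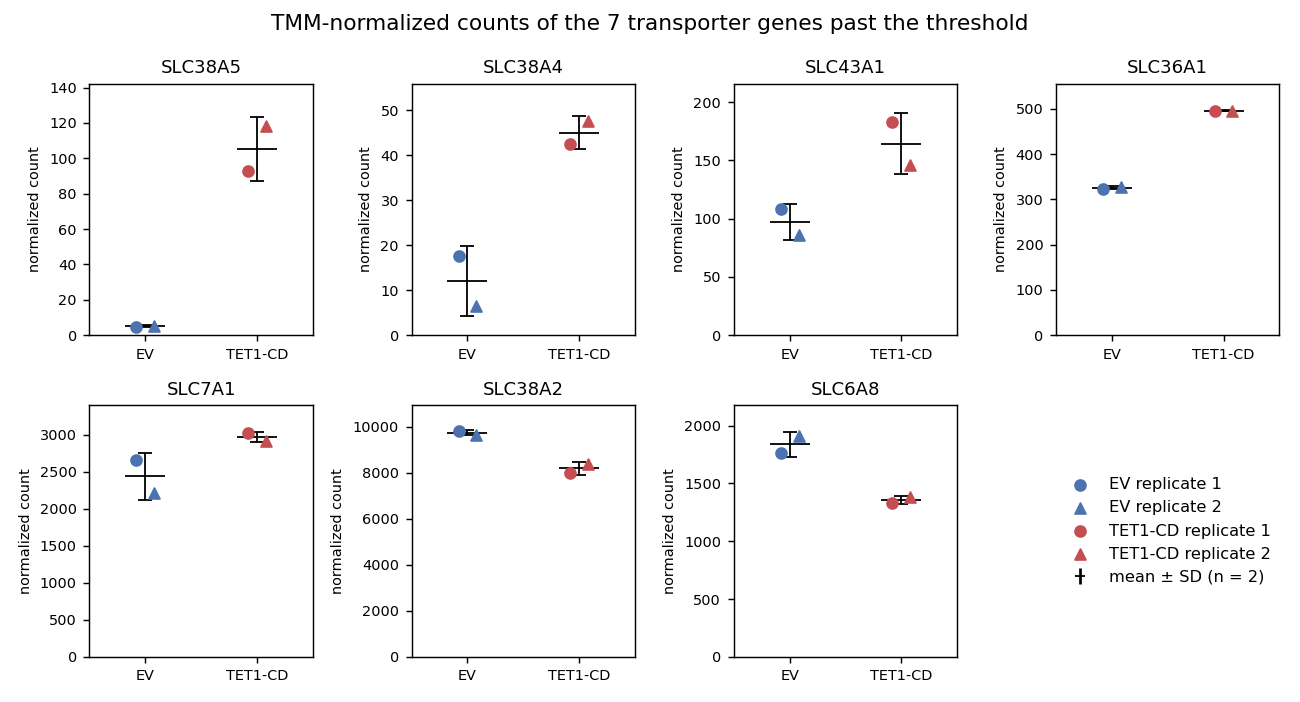
TMM-normalized counts of the 7 transporter genes with an adjusted p under 0.05, each on its own axis from 0, with EV in blue and TET1-CD in red, replicates as circles and triangles, and the mean ± SD (n = 2) in black. In every panel the groups are apart, from 5.01 to 105.3 on average for SLC38A5 down to 9738 to 8193 for SLC38A2.

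None of the 4 tested SLC1 genes passed the threshold (0 by edgeR, 0 at an unadjusted p under 0.05 and 0 by DESeq2). SLC1A5 had 1861 and 1809 normalized counts in EV against 1747 and 1823 in TET1-CD cells, and its log2 fold change of -0.04 (SE 0.06) had a 95% interval of -0.17 to 0.09 and an adjusted p of 0.679 by edgeR. SLC1A4 (ASCT1, serine and alanine) had 225.2 and 185.6 against 218.2 and 259.1. The glutamate transporters were low, with 39.7 and 45.3 normalized counts in EV against 21.3 and 33.3 in TET1-CD cells for SLC1A1 (EAAT3, log2 fold change -0.62, 95% interval -1.3 to 0.06) and 59.1 and 83.1 against 53.2 and 60 for SLC1A3 (EAAT1, -0.31, 95% interval -0.82 to 0.19). SPATA6L overlaps SLC1A1 on the other strand, with 33 and 18 counts in EV against 7 and 6 in TET1-CD cells.

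The 4 tested SLC38 genes outside Systems A and N did not pass the test either. SLC38A7, a lysosomal glutamine carrier, was nearest, with 443.8 and 393.9 normalized counts in EV against 517.2 and 485.8 in TET1-CD cells (log2 fold change 0.26, adjusted p = 0.0847 from edgeR, and 0.0429 with a replicate block). SLC38A9 had 374.6 and 413.3 against 384.2 and 353.4, which overlap (log2 fold change -0.09, SE 0.1, 95% interval -0.31 to 0.12, adjusted p = 0.551 from edgeR). SLC38A10 had 1227 and 1197 against 1128 and 1113, lower in both TET1-CD libraries (log2 fold change -0.11, SE 0.06, 95% interval -0.24 to 0.018, adjusted p = 0.214 from edgeR). SLC38A6 had 128.3 and 148.9 against 138.3 and 153.3. Across the 16 genes that did not pass, the 95% interval lay within a 1.5-fold change in either direction for 13, the exceptions being SLC1A1, SLC1A3 and SLC6A9. For 11 of these 16, the difference between the EV libraries was larger than that between the groups. A difference between single libraries varies more than one between group means, and these genes were picked as not called, so nothing is read from this count. The median absolute log2 difference of the 23 genes was 0.194 between the EV libraries, 0.0867 between the TET1-CD libraries and 0.214 between the groups, beside 0.121, 0.0825 and 0.163 over all genes tested.

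By family, the summed FPKM of all members was 348.5 and 332.6 in EV against 326.8 and 335.6 in TET1-CD cells, so the totals overlapped. Counting members only, SLC38 gave more than any other family, with 200.5 and 189 in EV against 180.9 and 188.2 in TET1-CD cells. Of its 8 tested genes 3 changed, 2 higher and 1 lower. SLC6 gave 38.4 and 40.7 against 31.1 and 33.3, most of it from SLC6A8. SLC43 was 13.6 and 14.6 against 16.6 and 15.9, and SLC7 was 40.8 and 35.3 against 44.3 and 41.8, each with 1 of 3 tested members higher. The SLC7 values leave out SLC7A5 and SLC7A11, so the order of the families holds for members only. SLC7A5 alone had 103.3 and 105.5 FPKM in EV against 154.1 and 158.1 in TET1-CD cells. SLC36 was 14 and 11.5 against 14.2 and 14.1, with 1 of 2 tested genes higher and EV replicate 1 just under the TET1-CD libraries. SLC1 overlapped, at 41.2 and 41.2 against 39.7 and 42.1, with none of 4 tested genes called. The share called over all genes tested was 19.7%, and with 2 to 8 tested genes a family nothing is read from the counts. The SLC3 family was represented by SLC3A1 alone. These sums were not tested, and the highest genes dominate them.

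**Figure D4:**
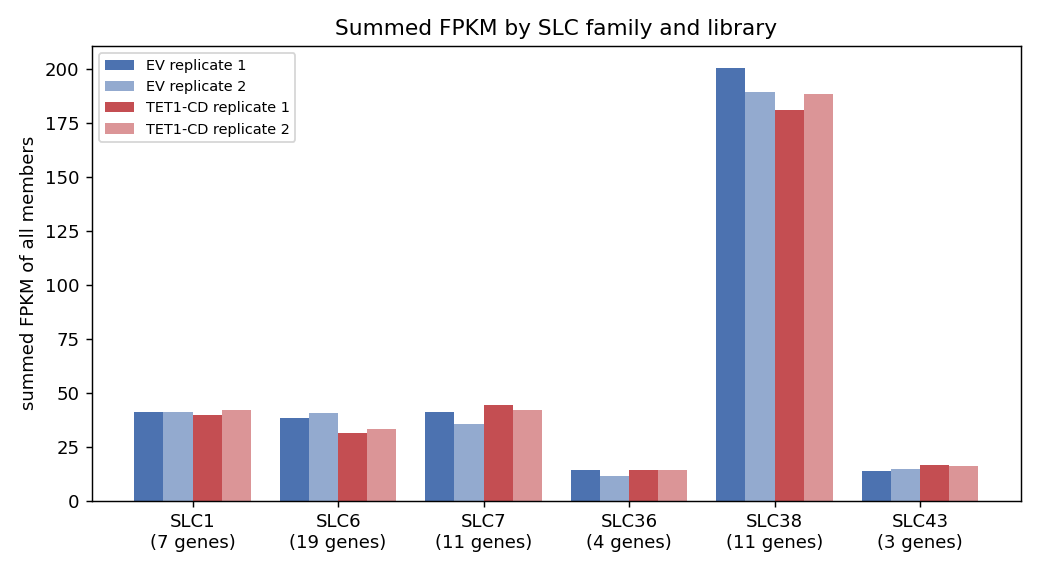
Summed FPKM of all members of each SLC family (SLC3 is left out, at 0.26 FPKM or less) in the 4 libraries, with EV in blue and TET1-CD in red, replicate 2 in the lighter shade and the number of member genes under each name. Among members SLC38 is highest at 180.9 to 200.5, and SLC6 is lower in both TET1-CD libraries. The SLC7 bars leave out SLC7A5 and SLC7A11.

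Within genes, the estimated split between transcripts differed between groups for SLC38A10, while the gene itself did not pass the test. ENST00000374759 took 67.4% and 65.2% of its counts in EV against 58.1% and 60.3% in TET1-CD cells, and ENST00000288439 had 21.6% and 23.7% against 29.9% and 28.1%. In SLC43A3, ENST00000395124 took 76.6% and 58.8% against 96.6% and 97.1%, and ENST00000533524 took 4.46% and 4.44% against 0.0765% and 0%. SLC7A1 and SLC36A1 had nearly all counts on a single transcript in every library (at least 98.7%). Some splits also differed between replicates. In SLC43A1, ENST00000528450 had 45 and 0.00965 estimated counts in the EV libraries, and in SLC43A3 the second transcript was ENST00000529554 in EV replicate 1 (68.7 counts) and ENST00000395123 in EV replicate 2 (125.3 counts). These shares are estimates with no test, and results by gene do not rest on them.

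TET1 converts 5-methylcytosine, which in human cells sits mainly at CpG sites, to 5-hydroxymethylcytosine, so the CpG content of the members' promoters was described. Promoter sequences from RefSeq (GRCh38.p14) were matched by symbol for 42 of the 56 members, and the 250 bases before each start were used. These held 1 to 43 CpG sites, with a median of 17 for the 20 tested members with a sequence and 7.5 for the 22 that were not tested, against 11 over 35116 promoters. The 5 genes that rose spanned this whole range, with 1 site in SLC36A1, 7 in SLC38A5, 11 in SLC38A4, 15 in SLC43A1 and 43 in SLC7A1, and those that fell had 25 (SLC6A8) and 26 (SLC38A2). Methylation was not measured in these files, and the start used by the cells may differ from that of RefSeq. The 4 sequences below are shown because they give the largest rise (SLC38A5), the neighbouring pair that moved in opposite directions (SLC38A4 and SLC38A2) and the promoter richest in CpG (SLC7A1). Each matched GRCh37 exactly and once, on the minus strand, at chrX:48328649-48328898, chr12:47219781-47220030, chr12:46766557-46766806 and chr13:30169826-30170075, and they run 5′ to 3′ with CpG sites in capitals.
SLC38A5: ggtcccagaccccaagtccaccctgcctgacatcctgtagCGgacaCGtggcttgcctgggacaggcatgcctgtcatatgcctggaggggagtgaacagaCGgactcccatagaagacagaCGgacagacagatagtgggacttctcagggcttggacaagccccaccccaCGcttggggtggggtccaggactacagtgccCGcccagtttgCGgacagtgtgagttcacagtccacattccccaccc
SLC38A4: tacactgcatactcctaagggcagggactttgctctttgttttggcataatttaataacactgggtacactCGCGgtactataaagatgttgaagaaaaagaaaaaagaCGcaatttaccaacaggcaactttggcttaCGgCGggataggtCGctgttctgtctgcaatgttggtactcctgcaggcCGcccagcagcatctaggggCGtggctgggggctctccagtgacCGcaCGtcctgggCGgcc
SLC38A2: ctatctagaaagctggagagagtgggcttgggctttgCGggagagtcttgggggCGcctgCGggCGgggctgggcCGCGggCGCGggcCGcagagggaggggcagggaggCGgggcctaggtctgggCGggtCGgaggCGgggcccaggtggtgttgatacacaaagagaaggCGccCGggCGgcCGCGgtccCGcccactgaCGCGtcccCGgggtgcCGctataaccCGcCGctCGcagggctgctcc
SLC7A1: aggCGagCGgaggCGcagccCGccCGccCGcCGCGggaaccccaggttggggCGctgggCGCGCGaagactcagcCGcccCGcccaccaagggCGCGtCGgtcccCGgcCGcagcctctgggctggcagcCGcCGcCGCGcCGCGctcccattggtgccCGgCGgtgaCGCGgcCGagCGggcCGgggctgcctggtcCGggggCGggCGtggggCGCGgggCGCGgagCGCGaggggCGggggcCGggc

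The start in RefSeq was 4 bp upstream of the start in the files for SLC38A5 and at the same base for SLC7A1, but 94 bp downstream for SLC38A2 and 6411 bp downstream for SLC38A4. In CpG count, SLC38A5 exceeded 41.1% of all promoters and SLC38A2 exceeded 80.4%. A pair of motifs was searched on both strands in the same 250 bases, and they do not overlap each other. TGATGNAA, the core of the element bound by ATF4 with a C/EBP partner, was in 1 of the 42 promoters (SLC1A3; 2.38%) and in 3.14% of all promoters. TCACGTGA, the core of the lysosomal CLEAR element, was in 0 of the 42 and in 0.854% of all promoters. These matches describe letters in this window only.

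Genes around the members were taken from 4 lists written with earlier results of these data known. Among 20 tested amino acid transporters outside the membership, 3 rose and 3 fell with TET1-CD (30%, beside 19.7% of all genes tested). The 3 that rose were the genes left out by the rule. SLC7A5 (LAT1), the leucine exchanger, had 9476 and 8250 counts in EV against 12240 and 14008 in TET1-CD cells (log2 fold change 0.58, standard error 0.05, adjusted p = 6.1e-05 from edgeR). SLC3A2 (4F2hc), the heavy chain that SLC7A5, SLC7A6 and SLC7A11 pair with, had 3539 and 3388 against 3924 and 4638 (0.31, standard error 0.07, adjusted p = 0.009), and SLC7A11 (xCT), the cystine exchanger, had 2051 and 1413 against 2004 and 2190 (0.30, standard error 0.09, adjusted p = 0.0382). All TET1-CD libraries were above the EV libraries for these 3 genes after normalization, whereas SLC7A6 overlapped. SLC25A29, a mitochondrial carrier of basic amino acids, fell by 0.37 on the log2 scale (adjusted p = 0.00962 from edgeR).

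Of 39 tested genes of amino acid sensing and mTORC1, 2 were higher and 5 lower (17.9%, beside 19.7% of all genes tested). RRAGA, a Rag GTPase, had 1474 and 1429 counts in EV against 1050 and 1226 in TET1-CD cells (log2 fold change -0.34, adjusted p = 0.00943 from edgeR), C7orf60 (SAMTOR), the S-adenosylmethionine sensor, fell by 0.47, and SEH1L, a GATOR2 and nucleoporin subunit, rose by 0.27. Of 34 tested enzymes of amino acid metabolism, 2 were higher and 2 lower (11.8%, again beside 19.7%), among them GCLM of glutathione synthesis (0.31), ALDH18A1 of proline synthesis (-0.26) and the alanine aminotransferase GPT2 (-0.30). Of 15 tested genes for trafficking and partners of transporters, 1 was higher and 4 lower (33.3%, beside 19.7%). The arrestin-like ARRDC3 had 2244 and 2324 counts in EV against 1161 and 1378 in TET1-CD cells (log2 fold change -0.84, adjusted p = 1.63e-04 from edgeR), CAV1, the coat protein of caveolae, fell by 0.55, and AP2A1, an adaptor of clathrin-mediated endocytosis, rose by 0.26. The lists were described and not tested.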

How the data were processed

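The data are RNAseq of 4 libraries of T24 cells (2 EV, 2 TET1-CD), grouped by genotype label. Per the labels, poly(A) selection or rRNA removal preceded library construction. The authors deposited expected counts (estimated fragments, not whole) and FPKM values for 195700 Ensembl transcripts. The submitters' processing notes name cutadapt 1.9.1, HISAT2 2.0.1, HTSeq 0.6.1, DESeq2 and hg19, with no order, and the tool that gave fractional counts is not given in the sources used here. Expected counts were summed per gene and rounded, and fragments shared by similar genes are therefore divided by an estimate. edgeR 4.0.16 in R 4.3.3 (glmQLFit, glmQLFTest, TMM with factors of 0.9934 to 1.005, filterByExpr, no block) was run over 14573 genes with Benjamini-Hochberg adjustment. Standard errors (SE) were taken as the absolute log2 change over the root of the F statistic. For SLC38A5 this gave a smaller value than DESeq2 or limma-voom, so its interval may not cover the whole counting error. Alternatives were DESeq2 1.42.0, limma 3.58.1 (voom), RLE factors, no TMM, no count filter, a minimum of 10 counts per library, the replicate number as block, and omission of each library in turn. The steps were tested on simulated data in which the changed genes differed by 2-fold or more. This does not cover the smaller changes reported here. With 17442143 to 20295266 fragments per library, intervals and the floor of 3 counts cover counting error or the spread of 2 libraries per group only. The members and lists were chosen with earlier results of these data known. Full statistics were given for members with an adjusted p under 0.05 and for the 10 with the highest FPKM, and up to 3 genes per list were named by p, with SLC7A5, SLC3A2, SLC7A11 and TET1 named in any case. Protein sequences were not used here, and 1 untested member and 1 marker gene are not reported here by name.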

Additional observations from a re-analysis of the deposited data

How the results depend on the processing

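All 7 changed transporter genes were also called by DESeq2, with RLE normalization, with library size only, without a filter, with a replicate block and by limma-voom. With 10 counts in every library, SLC38A5 and SLC38A4 were left out by construction, so 3 genes were higher and 0 were past a fold change of 2 (0 also at an unadjusted p under 0.05 with that fold change). Leaving out each library in turn gave 3 to 10 calls, 2 to 8 higher and 1 to 3 lower, 1 to 2 past a fold change of 2, and 832 to 3779 over all genes, the lowest without TET1-CD replicate 1 (3 transporter calls) and then without TET1-CD replicate 2 (4), where the lone library is assumed to vary like the others. DESeq2 called 1739 of all genes against 2865 by edgeR. In these omissions, the log2 fold change changed sign for 6 genes that had not passed the test, and was -0.0035 to 0.25 for SLC6A6, -0.021 to 0.21 for SLC7A6, -0.18 to 0.012 for SLC7A2, -0.031 to 0.14 for SLC43A3, -0.036 to 0.19 for SLC38A6 and -0.2 to 0.26 for SLC43A2; the cause was not tested. Same-numbered libraries had a correlation of deviations of 0.00713 across all genes tested, genes not being independent. With 2 libraries per group this value cannot tell whether same-numbered libraries share more than a number. The replicate block gave 8 transporter calls, adding SLC38A7 (adjusted p = 0.0429 from edgeR), and 3235 over all genes. Without a filter, SLC38A1 and SLC6A9 were added.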
